A study of Mus musculus with 4 samples.

Results

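RNA polymerase II, the enzyme that transcribes protein-coding genes, and the general transcription factors that place it on promoters were compared between Chd1-/- and Control mouse embryonic stem cells. The genes were taken by a rule on their symbols, and the rule was chosen with earlier results of these data known. It took polymerase II subunits (Polr2a to Polr2m), TFIID (Tbp and most Taf genes) and Taf5l and Taf15, which are named as TAFs but lie outside TFIID. It also took the factors TFIIA, TFIIB, TFIIE, TFIIF and TFIIH (symbols opening with Gtf2a, Gtf2b, Gtf2e, Gtf2f or Gtf2h, with Ercc2 and Ercc3). Taf1a, Taf1b, Taf1c and Taf1d, which serve RNA polymerase I, and Taf7l were left out. Of 11728 genes named once in both deposited tables, 44 met the rule. The test took 43 of them, whose average level reached 1 FPKM. The remaining member, Taf9b, averaged 0.693 FPKM. Taf9 and Taf6l were merged with the neighbouring genes Ak6 and Tmem179b into single loci and could not be read alone.

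Transcription of a protein-coding gene starts when TFIID, a complex of the TATA-binding protein and its associated factors (TAFs), settles on the core promoter. TFIIA and TFIIB stabilise it, TFIIF brings in the polymerase, and TFIIE and TFIIH open the DNA. TFIIH also carries the kinase that phosphorylates the repeated tail of the largest polymerase subunit. Chd1 is a chromatin remodeler that travels with transcribing polymerase, and embryonic stem cells are known for high transcriptional output.

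Both groups came from embryonic stem cells with a tamoxifen-inducible Cre (Rosa26CreER), 1 floxed and 1 null Chd1 allele (Chd1fl/-). Chd1-/- cells received 1 µM tamoxifen and Control cells ethanol for 48 to 72 h, and both were then passaged 3 to 5 times in serum/LIF medium without tamoxifen. Control cells thus carried 1 functional and 1 null Chd1 allele. No picking of clones after treatment is described in the labels. The labels name 2 sets, each with 1 Chd1-/- and 1 Control library (n = 2 per group). The protocols name a pair of lines derived separately, and which library came from which line is not labelled. RNA came from equal cell numbers with a synthetic spike-in, and the values were taken as FPKM, a level per transcript length and sequenced library.

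Deposited values summed to 466994 and 518032 FPKM in the Chd1-/- libraries and to 584520 and 719549 FPKM in the Control libraries. Chd1 had 5.71 and 8.52 FPKM in Chd1-/- cells against 27.6 and 17.9 FPKM in Control cells, that is 20.7% of Control in set 1 and 47.7% in set 2. All 8 pluripotency markers were measured, with summed levels of 828 and 691 FPKM in Chd1-/- cells against 1108 and 1037 FPKM in Control cells, and 6 of them fell on the deposited scale, beside 9.8% of all 10261 tested genes, while 0 passed relative to each set's median ratio (limma, adjusted p under 0.05 as threshold, lowest 0.0580). Markers of fibroblasts (5 of 8 measured, sums of 2.65 and 4.44 FPKM in Chd1-/- against 2.69 and 8.29 FPKM in Control cells), primitive endoderm (1 of 6, 0.116 and 0.379 FPKM in Chd1-/- against 0.357 and 0.130 FPKM in Control cells) and trophectoderm (2 of 4, at most 2.62 FPKM in any library) were low. In bulk cultures, a change in RNA per cell and a change in the share of cells that express a gene cannot be told apart.

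On the deposited scale the transcription machinery was lower in Chd1-/- cells than in Control cells, by less than the median gene. Its median member stood at 82.1% of Control in set 1 and 83.2% in set 2 (log2 ratios -0.28 and -0.27), against 72.7% and 79.6% for the median of all 10261 tested genes (-0.46 and -0.33). With the trend of the ratio with level removed, the members' medians were -0.42 and -0.21, against -0.45 and -0.31 for all genes. The gap to all genes was then smaller in set 1 and larger in set 2. Of the 43 tested members, 28 were lower in both sets, 1 was higher in both and 14 went opposite ways. With each library scaled to its own sum over the tested genes, the members' medians were 0.02 and 0.18, against -0.16 and 0.11 for all genes. The fall on the deposited scale was thus not seen on this one. Equal sums take out any change shared by the whole table, so this scale cannot test that fall. It moves all ratios of a set by nearly the same amount, so the members' place above the median gene is kept by construction. The 28 are 65.1% of the members, beside 72.4% of all tested genes. The members' ratios ran from -2.14 to 0.44 in set 1 and from -0.94 to 0.22 in set 2 on the log2 scale.

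Of the 43 members 4 fell and 0 rose on the deposited scale, that is 9.30% of the members beside 9.8% of all tested genes that fell and 0.0682% that rose (limma with set as a block, Benjamini-Hochberg adjusted p under 0.05). The share that fell was thus near the background. The 4 were Polr2a, Polr2e, Taf13 and Taf5l. At an unadjusted p under 0.05, 12 members were lower (27.9% of them, beside 28.9% of all tested genes) and 0 higher. Taf13 alone was at least 1.5-fold lower in both sets, 2.33% of the members beside 10.2% of all tested genes. With 1 residual degree of freedom, the errors come from the level-dependent spread of the whole table, and how far a single gene varied between sets plays no part in its p-value. Without the set block, with one common prior variance or with library sums as the scale, 0 members passed (lowest adjusted p = 0.461, 0.288 and 0.275; 3, 2 and 8 members at an unadjusted p under 0.05), and among genes of at least 5 FPKM only Taf13 did. The loss was table-wide: of all 10261 genes 0 passed under the first and second of these settings and 40 fell and 34 rose with library sums, and 225 of the 6861 genes of at least 5 FPKM fell.

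**Figure D1:**
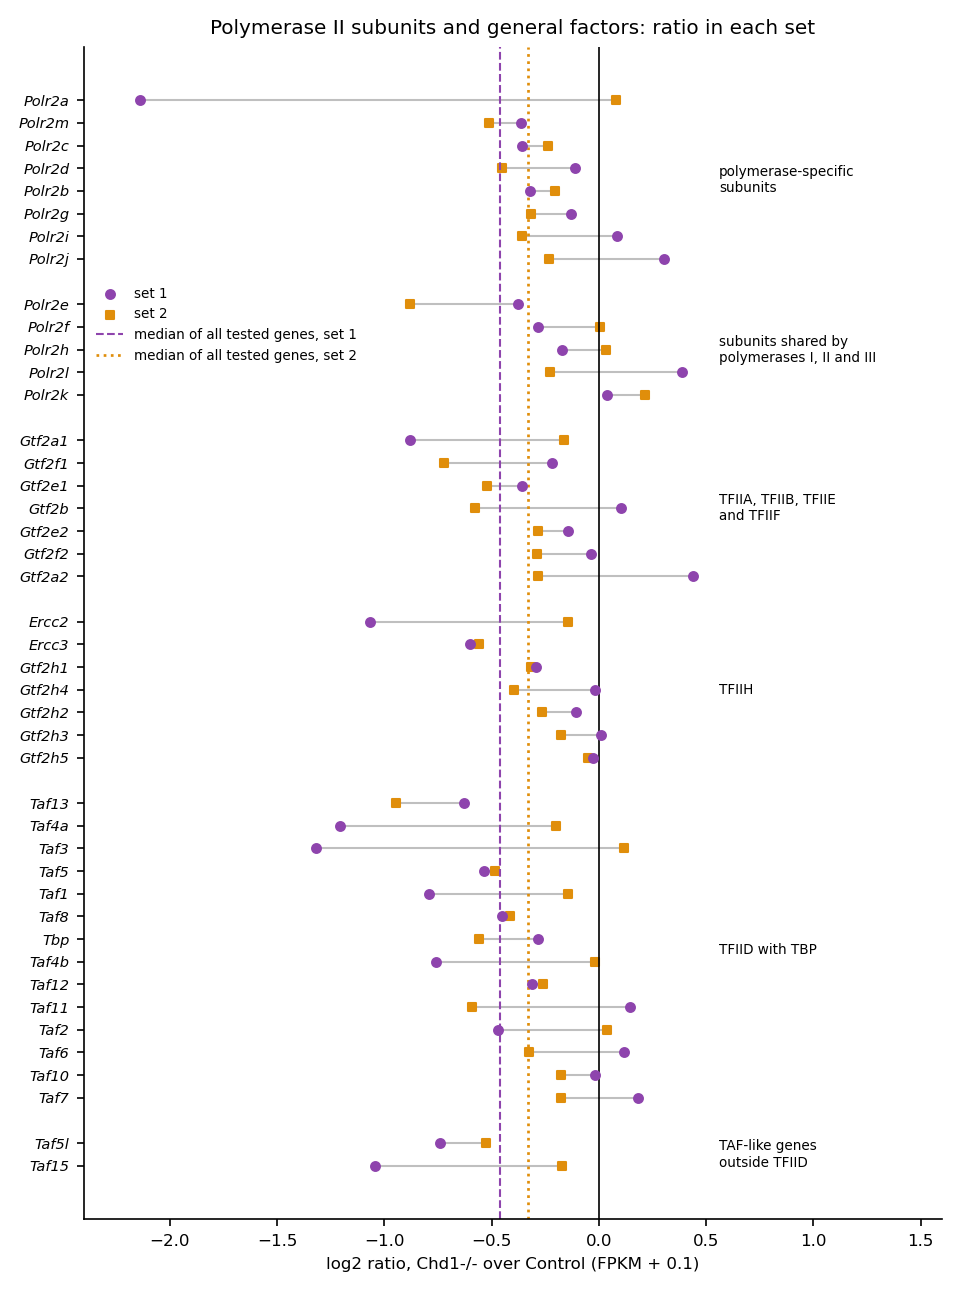
Log2 ratio of Chd1-/- over Control in set 1 (circles) and set 2 (squares) for the 43 tested members, grouped by role, with a line joining the sets of each gene and vertical lines at the medians of all tested genes (-0.46 in set 1, -0.33 in set 2). Polr2a spans the widest distance between sets, and 30 members in set 1 and 28 in set 2 lie right of that set's median.

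After each set's median log2 ratio was subtracted, 0 members passed the test (limma, lowest adjusted p = 0.585), beside 0.361% of all tested genes in either direction. At an unadjusted p under 0.05, 1 member was lower (Polr2a) and 3 were higher (Polr2k, Polr2l and Gtf2a2), beside 3.53% of all tested genes lower and 2.76% higher. In both sets 19 of the 43 members lay above the median of all genes, 44.2% beside 24.6% of all tested genes. Another 4 lay below it in both, beside 2528 of the 10261 tested genes. Those 4, named after their values were seen, were Taf13, Taf5, Ercc3 and Taf5l. The members' medians on this relative scale were 0.18 in set 1 and 0.06 in set 2. Once the trend of the ratio with level was removed from each set, they were 0.04 and 0.11, beside 0.01 and 0.02 for all genes.

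Among the polymerase-specific subunits, only the largest passed the test. Polr2a, which holds the catalytic centre and the repeated C-terminal tail, had 5.18 FPKM in Chd1-/- cells of set 1 and 8.67 FPKM in those of set 2, against 23.2 FPKM in Control cells of set 1 and 8.19 FPKM in those of set 2. The Control library of set 1 thus had the highest value and the Chd1-/- library of the same set the lowest. The test called it lower (log2 fold change -1.03, limma SE 0.27, adjusted p = 0.0057), but its log2 ratios were -2.14 and 0.081 (SD 1.57, n = 2 sets), so the difference was in set 1 alone. Only 97 of the 10261 tested genes (0.945%) differed more between the sets.

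The other 7 polymerase-specific subunits had log2 fold changes from -0.44 (Polr2m) to 0.04 (Polr2j), and none passed. Polr2j, a small subunit that pairs with Polr2c as the core assembles, had 91.0 and 64.0 FPKM in Chd1-/- cells, against 73.7 and 75.3 FPKM in Control cells. It was higher in set 1 and lower in set 2 (log2 fold change 0.04, SE 0.17, limma adjusted p = 0.891). Polr2b, the second-largest subunit, had 76.2 and 79.8 FPKM in Chd1-/- cells, against 95.2 and 92.1 FPKM in Control cells. Polr2b was lower in each set, at 80.0% of Control in set 1 and 86.7% in set 2 (limma adjusted p = 0.283).

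Levels per length can also be compared within a library, where the scaling between libraries cancels. Polr2a RNA stood at 6.80% of Polr2b in Chd1-/- cells of set 1 and 10.9% in those of set 2, against 24.3% in Control cells of set 1 and 8.90% in those of set 2. Other subunits also varied between libraries: Polr2k stood at 63.1% and 33.4% of Polr2b in Chd1-/- cells against 49.1% and 24.9% in Control cells, and Polr2j at 119% and 80.2% in Chd1-/- cells against 77.4% and 81.7% in Control cells. Polr2c varied least, at 70.9% and 72.1% in Chd1-/- cells against 72.8% and 73.6% in Control cells. Polr2a was the lowest of the 13 subunits in every library but Control set 1, where it was the 12th.

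**Figure D2:**
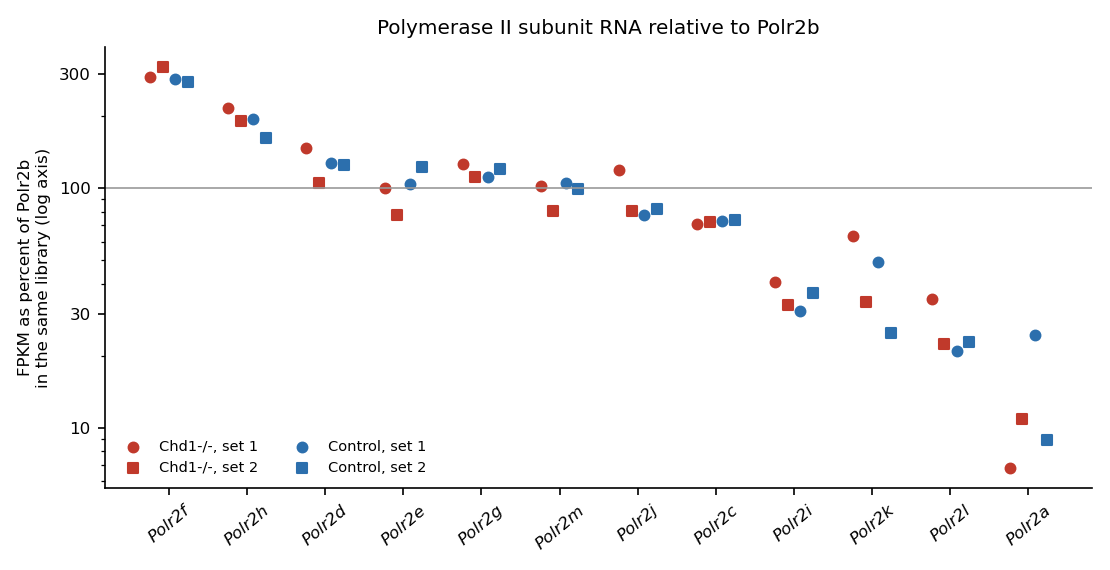
FPKM of each polymerase II subunit as a percent of Polr2b in the same library (log axis), for the Chd1-/- and Control libraries of both sets. Polr2f was the highest in each library, and the Control value of Polr2a in set 1 (24.3%) stands above the other 3 (6.80% to 10.9%).

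The 5 subunits that polymerase II shares with polymerases I and III had class medians of -0.17 (set 1) and 0.00341 (set 2), both above those of all genes. Polr2e, the 1 shared subunit that passed, fell by 0.63 on the log2 scale (SE 0.17, limma adjusted p = 0.0089). It had 76.4 and 61.5 FPKM in Chd1-/- cells, against 99.3 and 113.5 FPKM in Control cells. It was lower in each set, and the ratio was lower in set 2 (54.2% of Control) than in set 1 (77.0%). The median gene stood at 72.7% in set 1 and 79.6% in set 2, so Polr2e lay below it in set 2 alone. Relative to each set's median ratio it did not pass (log2 fold change -0.23, limma adjusted p = 0.998).

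Polr2k was the single member higher in both sets, with 48.1 and 26.7 FPKM in Chd1-/- cells against 46.8 and 23.0 FPKM in Control cells (log2 fold change 0.13, SE 0.19, limma adjusted p = 0.632). Its values differed more between the sets, which may have been scaled separately, than between the groups. Polr2f, Polr2h and Polr2l had log2 fold changes of -0.14, -0.07 and 0.08, and none passed. Polr2f was the most abundant member per length in each library, at 222.8 and 256.3 FPKM in Chd1-/- cells against 271.1 and 255.7 FPKM in Control cells.

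None of the 7 genes of TFIIA, TFIIB, TFIIE and TFIIF passed (lowest limma adjusted p = 0.118, Gtf2f1). At an unadjusted p under 0.05, 2 were lower, Gtf2f1 and Gtf2e1. The class medians were -0.14 in set 1 and -0.29 in set 2, above those of all genes, and 5 of the 7 were lower in both sets. Gtf2a1, which encodes the large precursor of TFIIA, had 5.17 and 5.13 FPKM in Chd1-/- cells, against 9.60 and 5.75 FPKM in Control cells. Most of its difference was in set 1 (53.9% of Control, beside 89.3% in set 2; adjusted p = 0.253). Its partner Gtf2a2, the small TFIIA subunit, had 33.2 and 25.5 FPKM in Chd1-/- cells, against 24.5 and 31.0 FPKM in Control cells, higher in set 1 and lower in set 2 (adjusted p = 0.783). Gtf2b, which bridges TFIID and the polymerase, also went opposite ways, at log2 ratios of 0.10 and -0.58.

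TFIIH genes did not pass either (lowest limma adjusted p = 0.0820). At an unadjusted p under 0.05, 2 of the 7 were lower, Ercc2 and Ercc3, beside 28.9% of all tested genes. Both encode helicase-type subunits of TFIIH, which also act in nucleotide excision repair. Ercc2 had 9.10 and 12.9 FPKM in Chd1-/- cells, against 19.1 and 14.2 FPKM in Control cells. It was the lowest of the class (log2 fold change -0.61, SE 0.24, adjusted p = 0.0820), mostly through set 1. Ercc3, which unwinds promoter DNA, was lower to a like extent in each set, at 65.8% and 67.7% of Control (adjusted p = 0.106).

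The structural TFIIH subunits lay nearer to Control. Gtf2h1 to Gtf2h4 had log2 fold changes from -0.30 (Gtf2h1) to -0.081 (Gtf2h3). Gtf2h5, the smallest subunit, had 18.3 and 13.0 FPKM in Chd1-/- cells, against 18.7 and 13.5 FPKM in Control cells (log2 fold change -0.04, SE 0.23, adjusted p = 0.909). Its 2 sets gave nearly the same ratio (SD 0.018 on the log2 scale).

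TFIID was the class with the lowest median in set 1 apart from the pair of TAF-like genes. Its 14 tested genes had medians of -0.46 in set 1 and -0.23 in set 2, so they lay at the median of all genes in set 1 and above it in set 2. In both sets 9 of them were lower, beside 72.4% of all tested genes. By the test 1 fell, beside 9.8% of all tested genes, and 0 rose. Taf13, which forms a histone-fold pair with Taf11, had 22.3 and 20.3 FPKM in Chd1-/- cells, against 34.6 and 39.2 FPKM in Control cells. It was lower in each set and fell by 0.79 on the log2 scale (SE 0.20, limma adjusted p = 0.0041), to 64.6% of Control in set 1 and 51.9% in set 2. Its partner Taf11 went opposite ways, at log2 ratios of 0.15 and -0.59 (adjusted p = 0.533).

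Tbp, the subunit that binds the TATA element, had 11.6 and 9.22 FPKM in Chd1-/- cells, against 14.2 and 13.6 FPKM in Control cells. It was lower in each set, but the difference did not pass (log2 fold change -0.42, SE 0.25, limma adjusted p = 0.239). Taf7, which binds Taf1, had 43.5 and 34.1 FPKM in Chd1-/- cells, against 38.4 and 38.6 FPKM in Control cells, with a log2 fold change of 0.0018 (SE 0.19, adjusted p = 0.995).

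Several TFIID genes with long coding sequences were lower mostly in set 1, but not all. Taf5 had log2 ratios of -0.54 and -0.48, and Taf6 0.12 and -0.32. Taf4a, a scaffold of the complex, had 6.34 and 8.11 FPKM in Chd1-/- cells, against 14.7 and 9.33 FPKM in Control cells (log2 fold change -0.70, SE 0.27, limma adjusted p = 0.0749). Taf3, whose PHD finger binds histone H3 trimethylated at lysine 4, had 1.14 and 1.495 FPKM in Chd1-/- cells, against 2.99 and 1.37 FPKM in Control cells. It stood at 38.1% of Control in set 1 and 109.0% in set 2 (adjusted p = 0.464), and as the lowest of the tested members it had the largest error (SE 0.59). Taf1, the largest TFIID subunit, had log2 ratios of -0.79 and -0.14, and Taf4b, the paralog of Taf4a, -0.76 and -0.02. Taf9b, which was not tested, had 0.296 and 0.738 FPKM in Chd1-/- cells against 0.835 and 0.904 FPKM in Control cells.

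Both TAF-named genes outside TFIID were lower in each set. Taf5l, the Taf5 paralog of the SAGA coactivator complex, had 41.5 and 34.1 FPKM in Chd1-/- cells, against 69.3 and 49.2 FPKM in Control cells. The Chd1-/- value was the lower one in each set, and Taf5l fell by 0.63 (SE 0.18, limma adjusted p = 0.0141), to 59.9% of Control in set 1 and 69.3% in set 2. Taf15, an RNA-binding protein, had 7.56 and 11.9 FPKM in Chd1-/- cells, against 15.7 and 13.5 FPKM in Control cells. It was lower mostly in set 1 (log2 ratios -1.04 and -0.17, adjusted p = 0.0949).

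**Figure D3:**
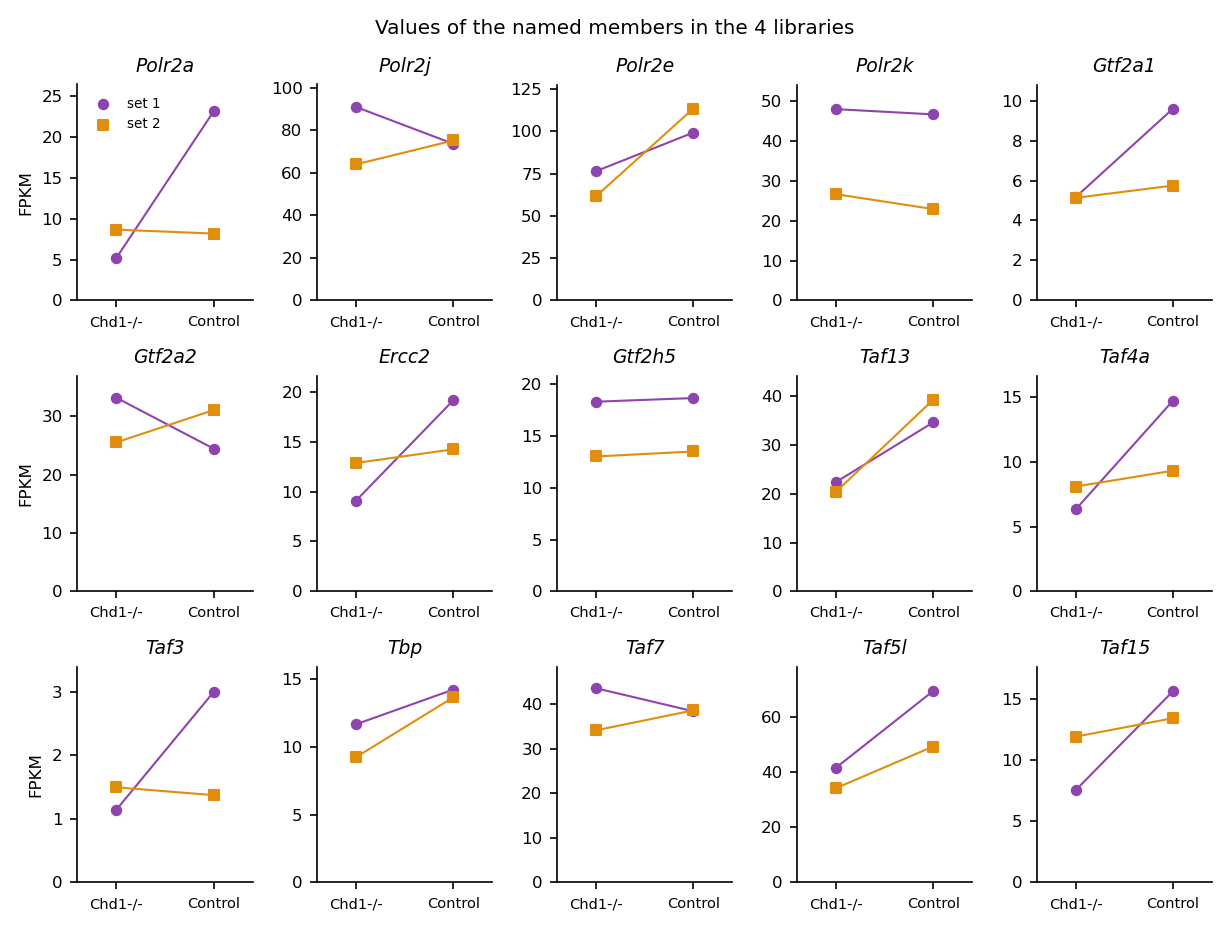
FPKM in the Chd1-/- and Control libraries of set 1 (circles) and set 2 (squares) for the 15 named members, with a line joining the libraries of a set and each axis starting at 0. Taf13, Polr2e, Tbp and Taf5l have lower Chd1-/- values in both sets, while Polr2a differs in set 1 (5.18 against 23.2 FPKM) and hardly in set 2 (8.67 against 8.19 FPKM).

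Promoter sequence of the 4 genes that fell is shown because the proteins of this group act on exactly such core promoters. The 100 bases before the start are given 5′ to 3′ on the gene's strand, from RefSeq on build GRCm38.p6, not the build of the values. Capitals mark TATAAA (the TATA element) and GGGCGG (the GC box), searched on both strands together with CCAAT, which these stretches do not hold. Polr2a lies at chr11:69758634-69758733 (minus strand), Polr2e at chr10:80039660-80039759 (minus), Taf13 at chr3:108571599-108571698 (plus) and Taf5l at chr8:124021398-124021497 (minus, the first of 2 listed starts).
Polr2a: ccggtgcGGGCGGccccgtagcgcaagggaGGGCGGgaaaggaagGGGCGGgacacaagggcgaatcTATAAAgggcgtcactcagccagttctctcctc
Polr2e: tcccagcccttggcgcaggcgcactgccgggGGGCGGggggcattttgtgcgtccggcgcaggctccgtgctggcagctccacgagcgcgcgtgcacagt
Taf13: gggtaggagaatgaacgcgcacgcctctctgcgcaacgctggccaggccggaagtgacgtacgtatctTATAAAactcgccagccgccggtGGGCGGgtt
Taf5l: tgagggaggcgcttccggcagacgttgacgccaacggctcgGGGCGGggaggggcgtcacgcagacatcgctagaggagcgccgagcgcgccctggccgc

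Polr2a and Taf13 held TATAAA, starting 33 and 32 bases before the start, and all 4 held GGGCGG. Of the 44 members, 35 matched the promoter table by symbol. In the 250 bases before any listed start, TATAAA was found in 8 of the 35 (22.9%), against 7.08% of the 7780 tested genes that matched. GGGCGG was found in 23 (65.7%, against 67.3%) and CCAAT in 12 (34.3%, against 41.5%). A match describes these letters only and says nothing on binding.

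In set 1, members with long coding sequences tended to have lower ratios. Polr2b (3522 bases, log2 ratio -0.32) and Taf6 (2034 bases, 0.12) were exceptions, above the median of all genes. Coding length, the longest in GENCODE M21, ranged from 201 bases (Polr2l) to 5910 bases (Polr2a). Across the 43 members, the log2 ratio had a Spearman's rho with length of -0.66 in set 1, against 0.14 in set 2. Across the 10042 tested genes with a coding length, it was -0.39 and 0.17. Without Polr2a the members gave -0.64 and 0.09. These points share their 4 libraries, and long members were also less abundant, so the values are a description.

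At a limit of 2000 bases, chosen after the values were seen, the 11 longer members had medians of -0.76 in set 1 and -0.15 in set 2. The 32 shorter ones had medians of -0.14 and -0.28. Over all tested genes the 2989 longer ones had medians of -0.71 and -0.25 and the 7053 shorter ones -0.35 and -0.37. The median level was 13.1 FPKM for the longer members and 43.6 FPKM for the shorter ones. The mean level had a rho with the log2 ratio of 0.46 (set 1) and -0.18 (set 2) across members, and of 0.42 and -0.15 across all tested genes. The part of transcript length and level in the changes of single members was not tested.

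**Figure D4:**
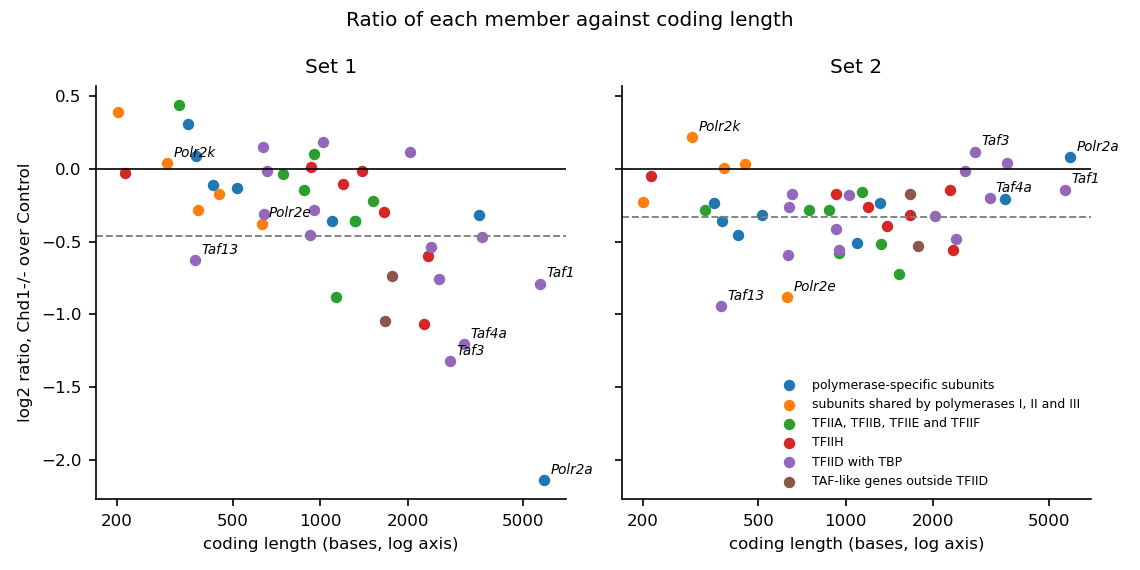
Log2 ratio of Chd1-/- over Control against coding length (log axis) for the 43 tested members in set 1 (left) and set 2 (right), coloured by role, with the dashed line at the median of all tested genes. In set 1 long members tend to lie low (rho -0.66), while in set 2 no such slope is seen (rho 0.14) and Taf13 and Polr2e are the lowest.

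Few genes that work beside this machinery passed the test. Of 38 tested genes in lists of the TFIIH kinase, TFIIS elongation factors, TBP regulators, polymerase assembly factors, regulators of the polymerase tail and SAGA subunits, 1 fell (2.63%, beside 9.8% of all tested genes) and 0 rose (limma adjusted p under 0.05). In both sets 28 were lower, 73.7% beside 72.4% of all tested genes. At an unadjusted p under 0.05 in limma, 10 of the 38 differed, beside 2995 of the 10261 tested genes. The gene that fell was Rpap2, a phosphatase of the polymerase tail that also aids polymerase import in human cells. It had 14.9 and 15.4 FPKM in Chd1-/- cells, against 26.1 and 24.6 FPKM in Control cells (log2 fold change -0.74, SE 0.22, limma adjusted p = 0.0160). Relative to each set's median ratio it did not pass (-0.34, adjusted p = 0.978).

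By list, 0 of 3 genes of the TFIIH kinase passed (medians -0.22 in set 1 and -0.17 in set 2). The 8 assembly factors, the list of Rpap2, had medians of -0.28 and -0.35, with 1 passing (3 at an unadjusted p under 0.05). The 9 regulators of the polymerase tail had medians of -0.74 and -0.34, and 0 passed (3 at an unadjusted p under 0.05). The 12 SAGA subunits outside the TAFs had medians of -0.44 and -0.07, with 0 passing (3 unadjusted), the 4 TBP regulators -0.38 and -0.33, with 0 passing (0 unadjusted), and the 2 TFIIS genes -0.44 and -0.51, with 0 passing (1 unadjusted). Among the TFIIH kinase genes 0 reached an unadjusted p under 0.05. Of all tested genes, 28.9% were lower at that threshold and 9.8% fell at the adjusted one.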

How the data were processed

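Per the submitters' processing notes, TopHat2 2.0.10, TopHat, Cufflinks 2.2.0 and Cuffdiff were used with build mm9; their order, the annotation and how the spike-in was used: not given in the sources used here. The deposited values were taken as FPKM, which the file headers do not state. The deposited ratio columns equal the quotient of the FPKM columns and were not used further. Read depth is unknown. The tables were joined on gene symbols that name exactly 1 locus in each; unnamed, merged and repeated loci were dropped. log2(FPKM + 0.1), on which changes of weakly expressed genes come out too small, was fitted with limma 3.58.1 (R 4.3.3; lmFit, eBayes with trend, set as a block, two-sided) on all 10261 genes with a mean of at least 1 FPKM, with Benjamini-Hochberg adjustment at 0.05, and again after subtracting each set's median log2 ratio. The tables may have been scaled separately, so only within-set ratios were tested. Libraries of a set deviated together (r = 0.483 across genes), and the protocols name 2 lines. Where the libraries are technical repeats, p-values measure only their spread. With 2 pairs, an exact sign-flip test cannot go below p = 0.5. The fit was run on simulated data whose noise followed its own fitted spread. That run cannot show how the fit treats genes that vary more between sets.

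Members, gene lists and tests were chosen with earlier results of these data known. Values per library are given for members past the threshold in either comparison, those at least 1.5-fold changed the same way in both sets, the lowest and highest of each role, the 3 with the widest difference between sets, Polr2a and Tbp, and neighbouring genes past the threshold. Promoters came from RefSeq (GRCm38.p6). Alternatives were the pseudocount, the filter, the block, the prior variance, library totals (sums over the tested genes), the level trend and each set left out.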

Additional observations from a re-analysis of the deposited data

Results flagged for a closer look

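Some named members had a higher value in one set and a lower value in the other; with 1 pair of libraries per set these differences were not tested. The log2 ratio of Chd1-/- over Control in set 1 minus that in set 2 was -2.22 for Polr2a and -1.43 for Taf3, lower in set 1 alone. It was 0.72 for Gtf2a2, 0.54 for Polr2j and 0.36 for Taf7, lower in set 2 alone. The median of the subunits shared by polymerases I, II and III differed by -0.17.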

How the results depend on the processing

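Of 43 members, 4 were called lower on the deposited scale, and the same 4 with a pseudocount of 1 and with no filter on low values. With a mean of at least 5 FPKM 1 was called (Taf13; 225 of all 6861 genes), and with the level trend removed 5, with Polr2m added (1287 of all 10261 genes). With no replicate block 0 were called and with one common prior variance 0, as for all genes (0 of 10261 under either). With library totals as the scale 0 were called (2 lower and 6 higher at an unadjusted p under 0.05), and 40 of all genes were lower and 34 higher. None of these made a member higher by the test. In limma's comparison relative to the set median, 0 members were called as reported and in each alternative run. The members' median log2 ratio of -0.28 became 0.10 with library totals, which moved the medians of all genes to -0.16 in set 1 and 0.11 in set 2, and -0.32 with the level trend removed. Library totals turned 20 of the 43 members positive (46.5%, beside 37.1% of all genes), Gtf2h5 (0.33) among them. With the level trend removed, Polr2j (-0.039) and Taf7 (-0.050) turned negative, and no other member changed sign. Leaving out a set moved Polr2a between -2.14 and 0.081. A single set leaves no residual degree of freedom, so no calls were made there. Library totals take out any change shared by the whole table by construction. The cause of the other dependences was not tested. Read depth, which would set the precision of low members such as Taf3, is unknown.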
